A study of Homo sapiens with 6 samples.

Results

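VEGFA, BNIP3L and NDRG1 are 3 genes that oxygen shortage switches on in many cell types, and their transcripts were followed here in THP-1 cells depleted of RKIP. They were taken from the deposited log2 values by joining each row of the table (a probe) to its gene, using only rows with 1 gene symbol and, for a gene with several rows, the row with the highest mean over the 6 arrays. The 3 genes are 3 of 14884 genes measured in this way, and each had 1 named row, 17009093 for VEGFA, 17067170 for BNIP3L and 17081401 for NDRG1. They were chosen because they were lower in RKIP shRNA cells, so their difference between the groups is described below and not tested. RefSeq places VEGFA on chromosome 6 and both BNIP3L and NDRG1 on chromosome 8; coordinates are left out, since the array annotation names no genome build.

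THP-1 is a long-established cell line from a human acute monocytic leukaemia. The RKIP shRNA group held 3 arrays of cells transduced with a hairpin against RKIP (Raf kinase inhibitor protein, encoded by PEBP1, a known brake on RAF-MEK-ERK signalling), and the control group held 3 arrays of cells given the same psi-LVRU6GP vector without insert. Both groups were kept under 1.5 µg/mL puromycin, so drug selection was shared by all 6 arrays. The labels name the 3 arrays of a group as biological replicates but do not say whether they came from separate transductions or from 1 transduced population, and no second hairpin is named. The p-values below therefore reflect only how far these arrays scatter, part of which may be technical, and the number of arrays limits the precision. The labels mention no low-oxygen treatment.

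Cells sense oxygen through the hypoxia-inducible factors (HIFs). In normal oxygen, prolyl hydroxylases of the EGLN family mark the HIF alpha subunits for destruction by the VHL ubiquitin ligase; when oxygen falls, the alpha subunit pairs with ARNT and binds short response elements with the core ACGTG or GCGTG. VEGFA encodes the main growth factor for blood vessels, which myeloid cells secrete; BNIP3L, also called NIX, is a receptor on the outer mitochondrial membrane that recruits the autophagy machinery; NDRG1 is a stress-induced cytoplasmic protein that MYC proteins are known to repress. All 3 also answer to signals other than oxygen.

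The targeted gene was low in every array labelled RKIP shRNA. PEBP1 stood at 8.25, 8.18 and 8.24 in the RKIP shRNA arrays and at 9.52, 9.77 and 9.75 in the control arrays (log2 values), and fell by 1.46 (limma adjusted p = 0.000228; exact two-sided permutation p = 0.1, the smallest that 3 arrays against 3 allow). Of 12 myeloid markers looked for, 8 were measured: LYZ, MPO, SPI1 and CD68 were called higher and CD86 and CD4 lower, CSF1R did not pass, and CD14 lay in both groups below the median of all rows, 4.08, which is called dim here. The summed log2 level of the myeloid markers was 58.8 to 60.3 in RKIP shRNA arrays and 56.5 to 57.0 in control arrays. LYZ had by far the largest log2 change of these markers, 2.55. The log2 changes of the others ran from -0.90 for CD86 to 0.49 for SPI1, so the sum does not show a shared rise. Of the T cell markers, 1 of 3 measured was called (CD5, higher), of the B cell markers 1 of 2 (VPREB3, lower), of the epithelial markers 1 of 5 (KRT18, lower), of the erythroid markers none of 2 by limma (none at an unadjusted p under 0.05 either), and of the fibroblast and endothelial markers 1 of 2 (PECAM1, higher and dim in both groups). For all marker counts the background is 10.2% of all genes called lower and 10.0% higher (limma adjusted p under 0.05). The summed levels were 14.3 to 14.9 in RKIP shRNA against 13.7 to 14.7 in control arrays for T cells, and 10.3 to 10.5 in RKIP shRNA against 10.8 to 11.0 in control arrays for B cells. For epithelial cells they were 24.3 to 24.7 in RKIP shRNA against 24.1 to 25.1 in control arrays, and for erythroid cells 11.3 to 11.8 in RKIP shRNA against 11.2 to 11.6 in control arrays. Fibroblast and endothelial markers summed to 7.61 to 7.66 in RKIP shRNA against 6.85 to 7.04 in control arrays. Both measured genes of this list were dim in both groups, with log2 changes of 0.62 for PECAM1 and 0.08 for VWF. CD5 (adjusted p from 0.014 to 0.14 over its alternatives), VPREB3 (0.035 to 0.10), KRT18 (0.0019 to 0.37), PECAM1 (0.0072 to 0.066), MPO (0.00046 to 0.12) and CD4 (0.0030 to 0.059) lost their call on leaving out 1 array or more. PECAM1 lost it without control replicate 2, CD4 without RKIP shRNA replicate 1 or control replicate 2 or 3, and MPO without any 1 array; CD5 kept it only without control replicate 3, VPREB3 only without control replicate 2 and KRT18 only without RKIP shRNA replicate 2 or 3. No array listed a marker at 0, but the lowest value of any row was 0.72, so this says nothing about a cell type's presence. The part of these markers in the results below was not tested, and in such bulk RNA fewer cells of a type and less RNA per cell cannot be told apart.

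VEGFA was lower in all RKIP shRNA arrays. Its log2 values were 7.91, 7.95 and 7.86 in the RKIP shRNA arrays and 8.55, 8.64 and 8.58 in the control arrays. The groups did not overlap, and the highest RKIP shRNA array lay 0.60 below the lowest control array. VEGFA averaged 7.91 ± 0.04 in RKIP shRNA cells and 8.59 ± 0.05 in control cells (SD, n = 3 each), a log2 change of -0.69. This is 1.61-fold lower, or 62.2% of the control level.

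BNIP3L, the mitophagy receptor gene, differed by about as much. It stood at 9.44, 9.35 and 9.24 in the RKIP shRNA arrays and at 10.00, 10.05 and 10.13 in the control arrays (log2 values). Again the groups were apart, by 0.56 between the nearest arrays. The mean was 9.34 ± 0.10 in RKIP shRNA cells and 10.06 ± 0.07 in control cells (SD, n = 3 each), a log2 change of -0.72. BNIP3L was thus 1.65-fold lower, at 60.8% of the control level.

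NDRG1 showed the smallest difference of the 3 genes. Its values were 6.29, 6.09 and 6.19 in the RKIP shRNA arrays and 6.70, 6.60 and 6.66 in the control arrays (log2 values). The nearest arrays of the 2 groups were 0.30 apart. NDRG1 averaged 6.19 ± 0.10 in RKIP shRNA cells and 6.65 ± 0.05 in control cells (SD, n = 3 each), a log2 change of -0.46. This is 1.38-fold lower, or 72.6% of the control level. None of the 3 genes was dim in either group.

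**Figure D1:**
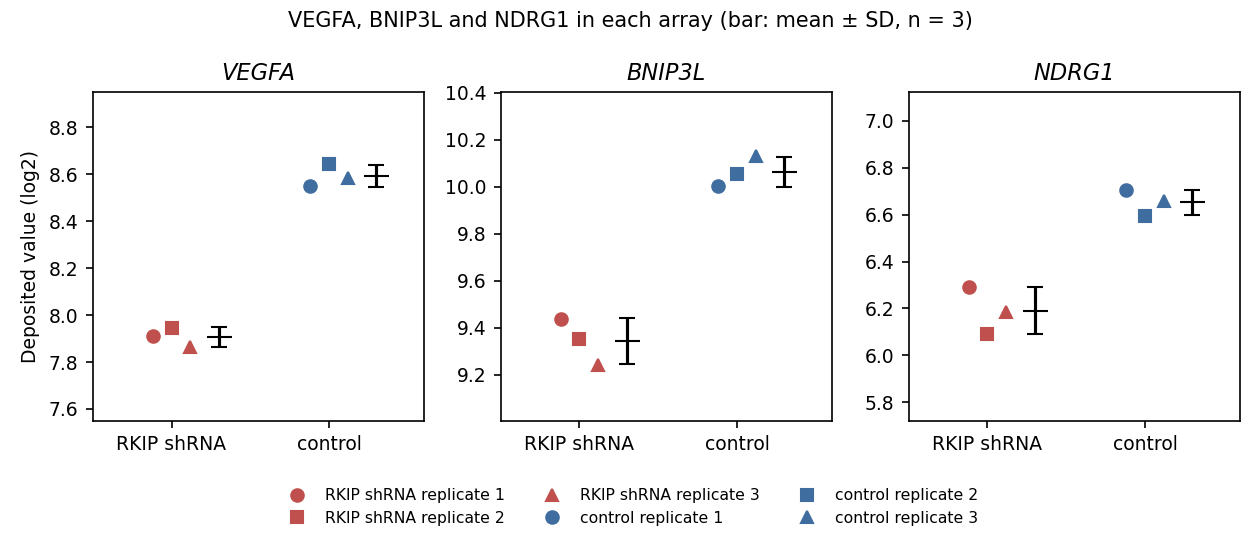
Deposited log2 values of VEGFA, BNIP3L and NDRG1 (vertical axes, each spanning the same range) in the RKIP shRNA and control arrays; each symbol is 1 array and the bars are mean ± SD of 3 arrays. All RKIP shRNA arrays lie below all control arrays for each gene, by 0.60, 0.56 and 0.30 between the nearest arrays.

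Changes of this size were not rare in these cells. Over all genes 10.2% were called lower and 10.0% higher (limma, Benjamini-Hochberg adjusted p under 0.05), and for 18.1% of genes every RKIP shRNA array lay below every control array; since the 3 genes were chosen from this contrast, nothing is read from their place among these. By the size of the log2 change BNIP3L ranked 339, VEGFA 383 and NDRG1 898 from the lowest of 14884 genes. The median log2 change of the 1515 genes called lower was -0.49, so VEGFA and BNIP3L lay beyond that median and NDRG1 just short of it. The log2 changes of VEGFA and BNIP3L differed by 0.03, less than the SD of either gene within a group. NDRG1 changed by less than VEGFA by 0.22 and less than BNIP3L by 0.26 on the log2 scale, which is more than any of their SDs; this difference was not tested.

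Within the groups the 3 genes did not share a pattern. VEGFA was highest in replicate 2 of both groups. BNIP3L was highest in replicate 1 of the RKIP shRNA group and in replicate 3 of the control group, and NDRG1 was highest in replicate 1 and lowest in replicate 2 of each group. The within-group SD, pooled over both groups, was 0.04 for VEGFA, where the median over genes of like brightness (the same of 10 equal bins) was 0.07. It was 0.08 for BNIP3L against a median of 0.06, and 0.08 for NDRG1 against a median of 0.10. VEGFA was therefore the most tightly measured of the 3, with an SD below that of all but 6.88% of genes.

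The change of each gene was computed again under 11 alternatives. VEGFA ranged from -0.71 to -0.66, BNIP3L from -0.77 to -0.67 and NDRG1 from -0.51 to -0.41 on the log2 scale. Blocking and averaging a gene's rows could not alter these values, since the groups are of equal size and each gene had 1 named row. Leaving out 1 array of a group cannot move a change by a full pooled within-group SD, nor reverse groups that do not overlap. Only the renormalised and reweighted fits could have moved further, and there too each value moved by less than 1 within-group SD of its gene. The NDRG1 range came from the RKIP shRNA arrays: its change was -0.51 without replicate 1 and -0.41 without replicate 2.

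**Figure D2:**
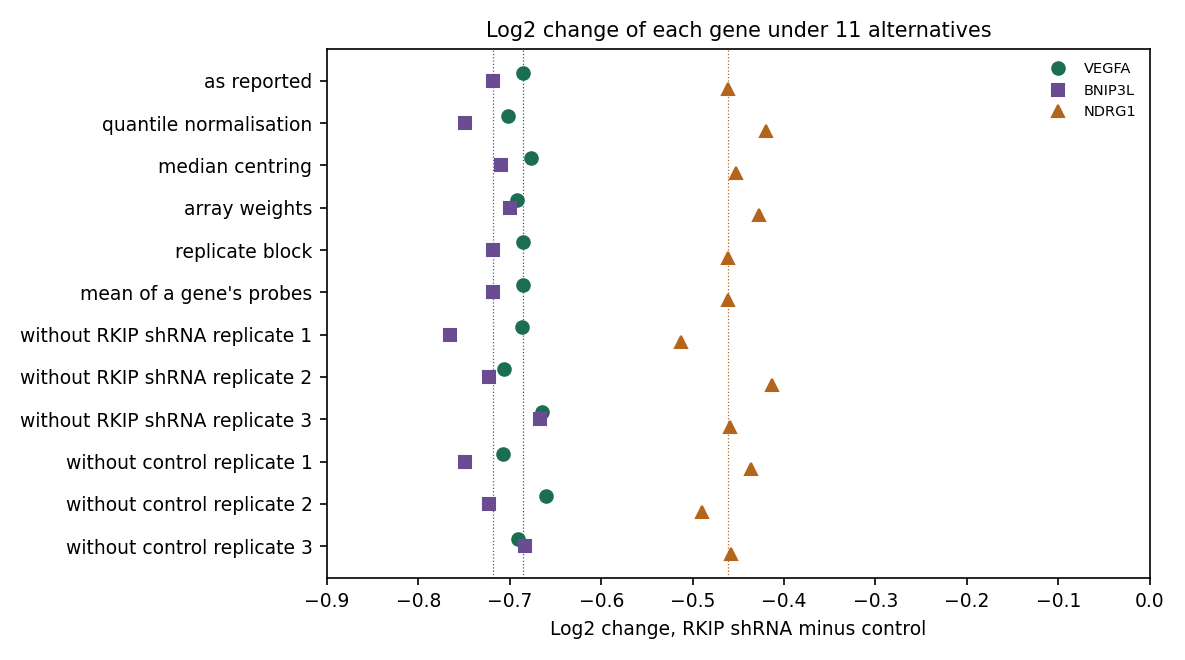
Log2 change, RKIP shRNA minus control, of VEGFA, BNIP3L and NDRG1 as reported (dotted lines) and under 11 alternatives in normalisation, weighting, blocking and left-out array. VEGFA stays between -0.71 and -0.66, BNIP3L between -0.77 and -0.67 and NDRG1 between -0.51 and -0.41.

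The genes whose values over the 6 arrays came closest to each of the 3 were sought among 9666 others brighter than the median of all rows, as the root mean square difference between values less each gene's own mean. For VEGFA these were CARS1, which encodes the cysteinyl-tRNA synthetase, at 0.03, the small GTPase gene RHOQ at 0.04 and OSBPL1A, an oxysterol-binding protein-like gene, at 0.04 (log2 units). CARS1 stood at 7.98, 7.95 and 7.96 in RKIP shRNA arrays and at 8.58, 8.66 and 8.64 in control arrays. For BNIP3L they were the zinc finger gene ZBTB8A at 0.03, BCAS3 at 0.04 and the centrosomal protein gene CEP68 at 0.04. For NDRG1 they were DOCK8, a guanine nucleotide exchange factor gene, at 0.02, the non-coding gene NBR2 at 0.03 and the DNA repair gene RAD51B at 0.03. Among themselves VEGFA and BNIP3L were 0.06 apart, VEGFA and NDRG1 0.15, and BNIP3L and NDRG1 0.15. The measure covers both the difference between the groups, by which the 3 genes were chosen, and the scatter within them, and is given as a description.

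**Figure D3:**
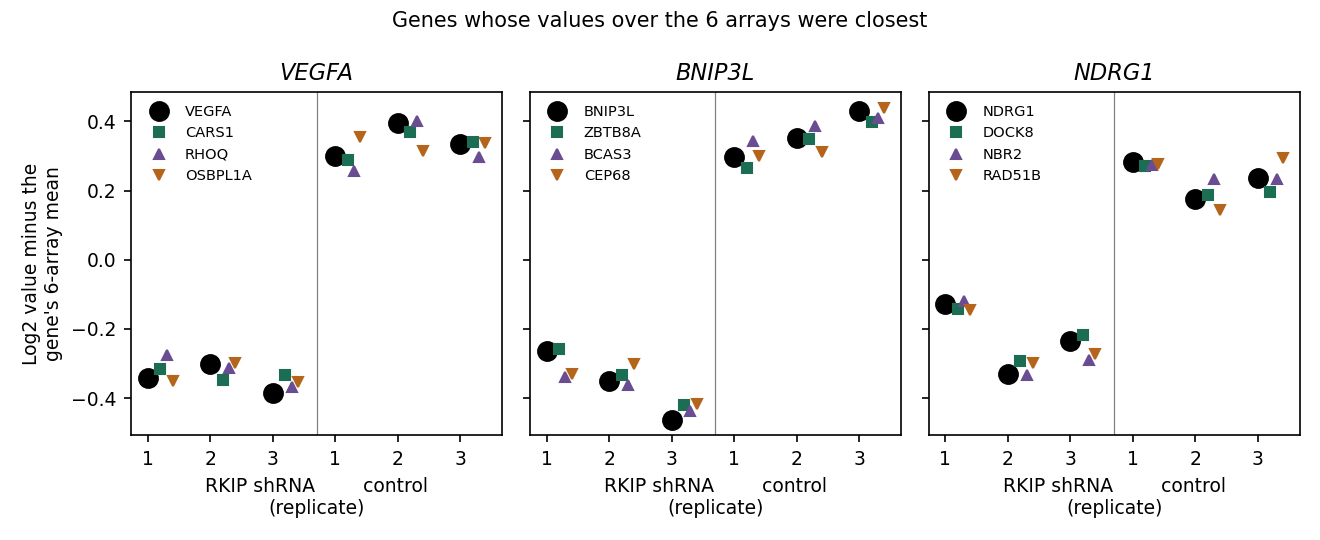
Log2 value less the gene's own 6-array mean in each array, for VEGFA, BNIP3L and NDRG1 (black circles) and the 3 genes closest to each (coloured symbols, shifted sideways for legibility). The closest genes lie 0.02 to 0.04 log2 units away from VEGFA, BNIP3L or NDRG1 by root mean square difference.

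Among the genes that sense oxygen and control HIF, SIAH1 showed the largest change, and the share called was near that of all genes. Of 21 such genes 10 were measured, and 2 fell and none rose (limma, as for all genes, of which 10.2% were called lower and 10.0% higher). At an unadjusted limma p under 0.05, 2 were lower and 3 higher, where 4806 of all 14884 genes passed in either direction. SIAH1, a ubiquitin ligase known to act on the prolyl hydroxylases, stood at 7.16, 7.24 and 7.16 in RKIP shRNA arrays and at 7.69, 7.66 and 7.77 in control arrays, and fell by 0.52 (SE 0.07, limma adjusted p = 0.0027). EGLN1, the prolyl hydroxylase that is itself a HIF target, fell by 0.27 (adjusted p = 0.035), a call lost on leaving out any 1 array (adjusted p from 0.0042 to 0.11 over 15 alternatives). ARNT, the partner of the HIF alpha subunits, stood at 9.19 ± 0.09 in RKIP shRNA cells and 9.14 ± 0.08 in control cells (SD, n = 3 each) and did not pass. EPAS1, which encodes HIF-2 alpha, and EGLN3 were dim in both groups, with log2 changes of 0.06 and 0.28 that did not pass. HIF1A, VHL, EGLN2 and HIF1AN were not analysed here.

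Among HIF targets of glycolysis, PGAM1 showed the largest change. Of 8 measured out of 22, 2 rose, none fell by limma (none at an unadjusted p under 0.05) and 6 did not pass, against 10.0% of all genes called higher and 10.2% lower; with a trended and robust prior 6 rose, and 5 rose when dim genes were left out of the test. Its 8 genes had a median log2 change of 0.27, against 0.02 over all genes. PGAM1, the phosphoglycerate mutase, stood at 8.60, 8.75 and 8.73 in RKIP shRNA arrays and at 7.79, 7.71 and 7.77 in control arrays, and rose by 0.94 (SE 0.07, limma adjusted p = 0.00048), or 1.91-fold. LDHA, the lactate dehydrogenase subunit that turns pyruvate into lactate, rose by 0.34 (adjusted p = 0.018), a call lost without any 1 control array (adjusted p from 0.0012 to 0.065 over 15 alternatives). PGK1, GAPDH and TPI1 had log2 changes of 0.28, 0.26 and 0.34 and did not pass. The summed log2 level of the list was 65.9 to 66.9 in RKIP shRNA arrays and 64.0 to 64.1 in control arrays.

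The other HIF targets held genes that moved with VEGFA, BNIP3L and NDRG1 and genes that moved against them. Of 32 measured out of 48, 10 fell, 3 rose and 19 did not pass. Thus 31.2% were called lower against 10.2% of all genes, and no test of this difference was made. The 2 shares are not like for like, since only 4 of the 32 were dim in both groups. When only the 9667 genes brighter than the median of all rows were tested, 1808 of them fell, 11 of this list among them. The list was chosen with earlier results of these data known. The median log2 change was -0.10, against 0.02 over all genes. KDM4C, a histone demethylase gene, stood at 6.51, 6.56 and 6.48 in RKIP shRNA arrays and at 7.34, 7.34 and 7.39 in control arrays, and fell by 0.84 (SE 0.06, limma adjusted p = 0.00048). CCNG2, the cyclin G2 gene linked to cell cycle arrest, stood at 5.75, 5.51 and 5.47 in RKIP shRNA arrays and at 6.55, 6.35 and 6.35 in control arrays, and also fell by 0.84 (SE 0.10, adjusted p = 0.0022). EFNA3, an ephrin gene, fell by 0.82 (adjusted p = 0.0022). These 3 genes were named for their small p, and their groups did not overlap. Every RKIP shRNA array lay below every control array for 14 of the 32 genes, against 18.1% of all genes. The changes of KDM4C, CCNG2 and EFNA3, like those of VEGFA and BNIP3L, were larger than that of NDRG1.

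The other 7 HIF targets that fell were STC2, a secreted glycoprotein gene, at -0.67, MXI1, which encodes an antagonist of MYC, at -0.62, the iron carrier gene TF at -0.49, the lipoprotein receptor gene VLDLR at -0.47, the histone demethylase gene KDM3A at -0.44, and ANGPTL4 and INSIG2 at -0.41 each (log2 changes, limma adjusted p from 0.0024 to 0.021). TF was dim in both groups and lost its call without RKIP shRNA replicate 1 or 3 (adjusted p from 0.012 to 0.064 over its alternatives). ANGPTL4, an angiopoietin-like lipase inhibitor gene, lost its call without RKIP shRNA replicate 2 or 3 or control replicate 2 or 3 (adjusted p from 0.0087 to 0.069 over its alternatives). Those that rose were GYS1, the muscle glycogen synthase, by 0.65 (SE 0.08, adjusted p = 0.0019), the cytokine gene MIF by 0.43 (adjusted p = 0.0082) and the chemokine receptor gene CXCR4 by 0.26 (adjusted p = 0.031). CXCR4 lost its call on leaving out any 1 array (adjusted p from 0.00073 to 0.11 over 15 alternatives).

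**Figure D4:**
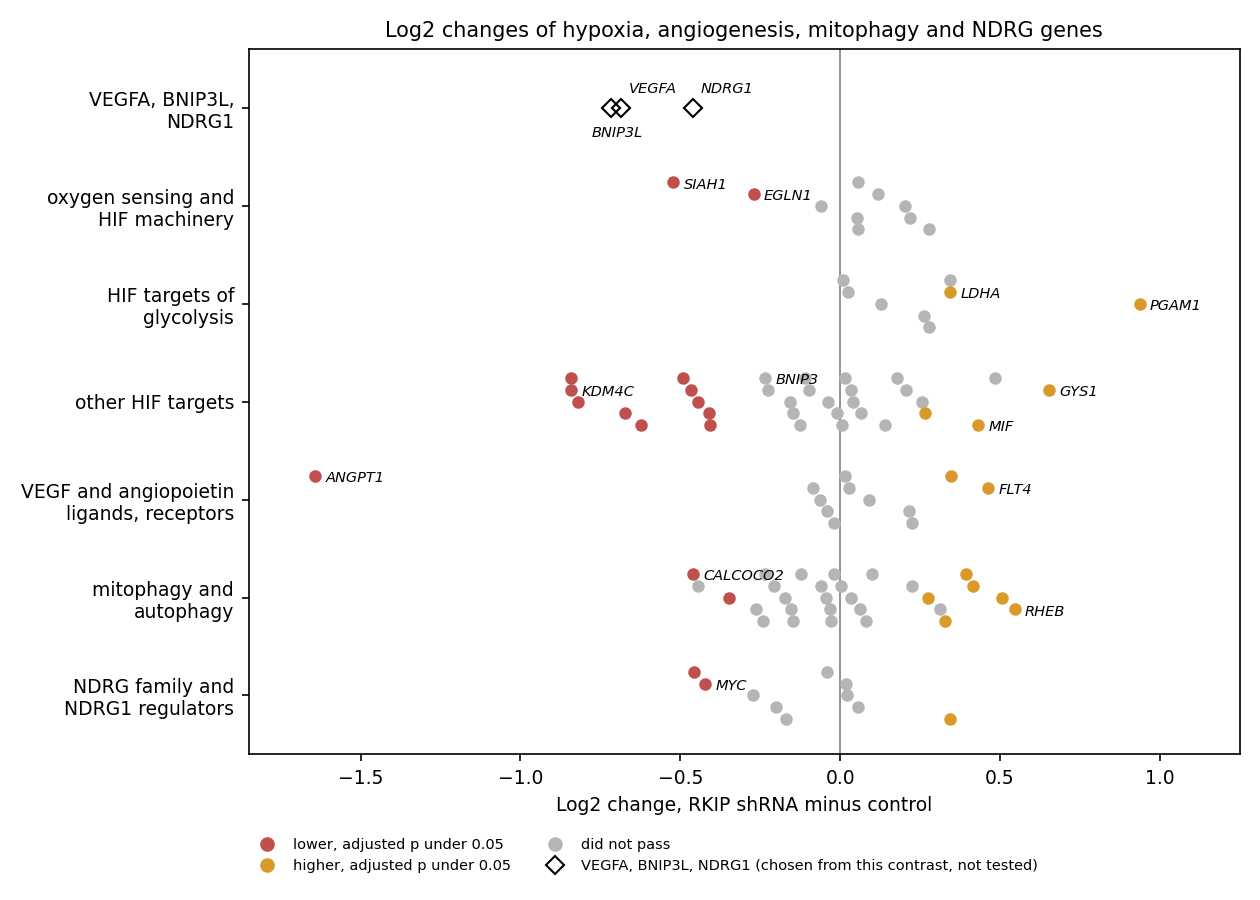
Log2 change, RKIP shRNA minus control, of VEGFA, BNIP3L and NDRG1 (open diamonds, not tested) and of the 100 measured pathway genes in 6 lists (points, jittered vertically; BNIP3 is in 2 lists), coloured by the limma call. Of the other HIF targets 10 are lower and 3 higher, while the lowest of the 8 glycolytic targets lies at 0.01.

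Promoters of 4 HIF-linked genes show what the response element cores look like in genes that moved in different ways: BNIP3, the paralogue of BNIP3L, which missed the threshold; KDM4C and CCNG2, which fell; and LDHA, which rose. Sequences are RefSeq's for GRCh38.p14, 250 bases before to 50 after the gene start, 5′ to 3′ on the gene's strand: BNIP3 at chr10:131981874-131982173 (minus strand), KDM4C at chr9:6757723-6758022, CCNG2 at chr4:77156957-77157256 and LDHA at chr11:18394313-18394612 (all plus strand). Capitals mark ACGTG or GCGTG read on either strand; an uninterrupted CACGTG holds ACGTG on both strands.
BNIP3 promoter: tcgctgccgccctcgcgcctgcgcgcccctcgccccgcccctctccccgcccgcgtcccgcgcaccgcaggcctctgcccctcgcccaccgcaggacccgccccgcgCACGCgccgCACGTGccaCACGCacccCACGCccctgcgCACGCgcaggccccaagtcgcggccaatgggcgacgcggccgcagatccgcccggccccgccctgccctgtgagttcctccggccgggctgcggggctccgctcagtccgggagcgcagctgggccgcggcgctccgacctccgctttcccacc
KDM4C promoter: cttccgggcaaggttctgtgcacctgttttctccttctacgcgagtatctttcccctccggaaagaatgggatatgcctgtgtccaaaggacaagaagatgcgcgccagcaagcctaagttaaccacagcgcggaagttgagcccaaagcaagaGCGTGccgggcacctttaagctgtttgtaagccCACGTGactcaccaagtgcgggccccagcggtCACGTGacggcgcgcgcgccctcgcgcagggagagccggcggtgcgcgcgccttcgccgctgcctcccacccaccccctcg
CCNG2 promoter: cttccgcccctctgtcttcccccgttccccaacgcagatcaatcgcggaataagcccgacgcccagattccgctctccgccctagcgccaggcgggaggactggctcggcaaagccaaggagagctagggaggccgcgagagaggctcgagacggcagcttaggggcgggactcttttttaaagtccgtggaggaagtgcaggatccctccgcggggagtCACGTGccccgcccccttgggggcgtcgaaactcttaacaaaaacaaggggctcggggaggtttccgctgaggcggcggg
LDHA promoter: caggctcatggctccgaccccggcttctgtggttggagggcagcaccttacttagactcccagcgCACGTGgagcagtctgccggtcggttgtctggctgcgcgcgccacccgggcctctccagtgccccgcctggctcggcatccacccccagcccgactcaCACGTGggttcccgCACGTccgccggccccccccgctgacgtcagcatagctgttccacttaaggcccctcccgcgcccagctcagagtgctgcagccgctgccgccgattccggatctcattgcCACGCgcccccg
Counting both strands, BNIP3 held 2 ACGTG and 4 GCGTG, KDM4C 4 and 1, CCNG2 2 and 0, and LDHA 5 and 1. Of all 35116 promoters of this length in the RefSeq table, 48.4% held at least 1 of these cores and 7.26% held CACGTG. Among the 35 measured HIF targets with a promoter in the table, 9 of the 10 that fell, 4 of the 5 that rose and 16 of the 20 that did not pass held a core. CACGTG was in 2 of the 10 that fell, 1 of the 5 that rose and 6 of the 20 that did not pass. All 4 promoters printed here hold CACGTG, so they are not typical of these targets. A match of letters is a description and not a binding site.

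Around VEGFA, the other ligands and the receptors of the VEGF and angiopoietin families included 1 gene with a large fall. Of 12 measured out of 16, 1 fell, 2 rose and 9 did not pass, against 10.2% of all genes called lower and 10.0% higher, and 6 were dim in both groups. ANGPT1, the ligand of the TEK receptor that stabilises vessels, stood at 5.02, 4.47 and 5.02 in RKIP shRNA arrays and at 6.59, 6.60 and 6.25 in control arrays. It fell by 1.64 (SE 0.17, limma adjusted p = 0.0013), or 3.12-fold, with no overlap between the groups. VEGFB, another ligand of the family, did not pass, with a log2 change of -0.04, and VEGFC was dim in both groups. NRP1, a co-receptor of VEGFA, rose by 0.35 (adjusted p = 0.026) and FLT4, the receptor of VEGFC, by 0.46 (adjusted p = 0.025). NRP1 and FLT4 each lost their call without RKIP shRNA replicate 1 or 3 or control replicate 1 or 2 (adjusted p from 0.0076 to 0.090 for NRP1 and from 0.011 to 0.086 for FLT4 over 15 alternatives). The VEGFA receptor genes FLT1 and KDR were dim in both groups, with log2 changes of 0.03 and -0.09 that did not pass.

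BNIP3, the paralogue of BNIP3L and a mitophagy receptor too, stood at 8.00, 7.97 and 8.11 in RKIP shRNA arrays and at 8.28, 8.23 and 8.27 in control arrays. Its groups did not overlap, but its log2 change of -0.24 (SE 0.07, limma adjusted p = 0.054) did not pass in this fit; over 15 alternatives the adjusted p ran from 0.0089 to 0.16 and passed in 5. The log2 change of BNIP3L was -0.72. Of 29 measured genes of mitophagy and autophagy out of 39, 6 rose, 2 fell and 21 did not pass, against 10.0% of all genes called higher and 10.2% lower; on leaving out 1 array the count that rose was 2 or 3. ATG7, the activating enzyme of the conjugation of LC3 proteins, stood at 8.22, 8.23 and 8.23 in RKIP shRNA arrays and at 7.66, 7.76 and 7.74 in control arrays, and rose by 0.51 (SE 0.06, adjusted p = 0.0025). RHEB, the GTPase that activates mTORC1, rose by 0.55 (adjusted p = 0.0052). GABARAPL2, of the LC3 family that BNIP3L binds, rose by 0.39 (adjusted p = 0.021) and lost its call when any array except control replicate 3 was left out (adjusted p from 0.0017 to 0.069 over 15 alternatives). CALCOCO2, another cargo receptor of autophagy, stood at 8.04, 7.96 and 8.08 in RKIP shRNA arrays and at 8.39, 8.49 and 8.58 in control arrays, and fell by 0.46 (SE 0.08, adjusted p = 0.0068). USP30, a deubiquitinase gene of the outer mitochondrial membrane, fell by 0.35 (adjusted p = 0.026) and lost its call when any array except control replicate 1 was left out (adjusted p from 0.011 to 0.091 over 15 alternatives).

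Relatives of NDRG1 were not called. NDRG3 stood at 8.35 ± 0.11 in RKIP shRNA cells and 8.52 ± 0.03 in control cells and NDRG4 at 4.50 ± 0.12 in RKIP shRNA cells and 4.70 ± 0.06 in control cells (SD, n = 3 each); the log2 changes of -0.17 and -0.20 did not pass (limma adjusted p = 0.19 and 0.15). For NDRG3 and NDRG4 every RKIP shRNA array lay below every control array, which held for 18.1% of all genes. NDRG2 was dim in both groups, and its groups overlapped. Of 10 measured relatives and regulators out of 12, 2 fell, 1 rose and 7 did not pass, against 10.2% of all genes called lower and 10.0% higher. MYC, known to repress NDRG1, stood at 11.23, 11.14 and 11.34 in RKIP shRNA arrays and at 11.68, 11.64 and 11.65 in control arrays, and fell by 0.42 (SE 0.07, adjusted p = 0.0083), the same direction as the difference in NDRG1. Whether MYC had a part in the NDRG1 difference was not tested. KDM5B, a histone demethylase gene, fell by 0.46 (adjusted p = 0.0040). GSK3A, a kinase of the pair that phosphorylates NDRG1, rose by 0.34 (adjusted p = 0.013) and lost its call without RKIP shRNA replicate 1 (adjusted p = 0.051). SGK1, the kinase that phosphorylates NDRG1 first, was dim in both groups.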

How the data were processed

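THP-1 total RNA (250 ng per array) was hybridised to Affymetrix Human Gene arrays, per the labels. The authors deposited 1 table of 53617 rows and 6 columns of log2 expression values; their span of 0.72 to 14.0 marks them as log2, and array medians of 4.06 to 4.10 were nearly equal. How the authors normalised them is not given in the sources used here, nor is a genome build. The supplied array annotation named 16098 rows with 1 symbol and 0 with several, and all matched RefSeq by gene number; for 779 of 14884 genes the brightest of several rows was kept. RKIP shRNA minus control was fitted over all genes with lmFit and eBayes (limma 3.58.1, R 4.3.3, no brightness filter) with calls at an adjusted p (Benjamini-Hochberg) under 0.05; the fit was tested on simulated data. No array date or batch is in the labels. VEGFA, BNIP3L, NDRG1, the 6 gene lists and the marker lists were chosen with earlier results of these data known. Genes named were PEBP1, core genes of each list, in each list the 4 called genes with the smallest p (or the 2 largest changes), and the 3 closest to VEGFA, BNIP3L and NDRG1; STC2, MXI1, TF, VLDLR, KDM3A, ANGPTL4, INSIG2, CXCR4, MIF, PGK1, GAPDH, TPI1, USP30, VEGFB, VEGFC, SGK1, those of the last paragraph and the markers were named after their values were seen. No 2 arrays were duplicates (58 to 144 identical rows a pair). Figures used matplotlib 3.10.9.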

Additional observations from a re-analysis of the deposited data

How the results depend on the processing

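The log2 changes of VEGFA, BNIP3L and NDRG1 kept their sign and moved by less than 1 within-group SD under all 11 alternatives. Blocking, averaging a gene's rows and leaving out 1 array could not have given another outcome, so they say nothing about stability. The fall of PEBP1 kept its call under all 16 of its own alternatives. No named gene that was called reversed. Of 47 other named genes that were called, markers included, 30 kept their call under every alternative run for them, and 16 lost it on leaving out at least 1 array. Of all genes, 1515 were called lower and 1495 higher; at an adjusted p under 0.01 these were 775 and 697, and over all 53617 rows, named or not, 2439 were lower. Leaving out 1 array gave 1018 to 1270 lower and 963 to 1212 higher genes, with 963 higher without RKIP shRNA replicate 1, 969 without control replicate 2 and 983 without control replicate 3.

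At an adjusted p under 0.01, and likewise with all rows tested, 1 oxygen-sensing gene fell and 1 glycolytic target rose. In both settings 0 VEGF and angiopoietin genes rose, 1 autophagy gene fell and 2 rose, and 0 NDRG relatives and regulators rose. Of the other HIF targets 7 fell at an adjusted p under 0.01 and 9 with all rows tested, and 2 rose in each. With a trended and robust prior, 1 oxygen-sensing gene and 6 glycolytic targets rose and 5 autophagy genes fell; without dim genes these were 1, 5 and 5. The ordinary t statistic gave 0 VEGF and angiopoietin genes and 2 autophagy genes that rose. Leaving out 1 array gave 1 oxygen-sensing gene that fell, 1 to 3 glycolytic targets that rose, 8 to 10 other HIF targets that fell and 2 to 3 that rose, 0 to 2 VEGF and angiopoietin genes that rose, 1 to 2 autophagy genes that fell and 2 to 3 that rose, and 0 to 1 NDRG relatives and regulators that rose. Why the counts differed between these settings was not tested.

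With the replicate number as a block, 1109 genes were lower and 1033 higher, and 1 oxygen-sensing gene fell, 1 VEGF and angiopoietin gene, 3 autophagy genes and 0 NDRG relatives and regulators rose. The numbers did not pair the arrays: deviations of same-numbered arrays from their group means correlated at 0.019, 0.0034 and -0.016 across genes, and not every array correlated best with its own number. Dim probes, whose changes background can compress, limit what can be said of VEGFC, FLT1, KDR, EPAS1, EGLN3, NDRG2 and SGK1.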

Other observations

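Several genes that are often read as signs of a HIF or stress response did not pass the test in the cells where VEGFA, BNIP3L and NDRG1 were lower. DDIT4, an inhibitor of mTORC1 signalling induced by hypoxia, stood at 10.52, 10.53 and 10.52 in RKIP shRNA arrays and at 10.55, 10.51 and 10.49 in control arrays, a log2 change of 0.01. The groups overlapped. ADM, the vasodilator peptide adrenomedullin, had a log2 change of -0.16, the haem oxygenase gene HMOX1 -0.13 and ERO1A, an oxidase of the endoplasmic reticulum, -0.01. None of these 4 passed (limma adjusted p = 0.96, 0.42, 0.47 and 0.94). They were picked, after their values were seen, from the 32 measured other HIF targets. Of those 32 genes 10 fell, 3 rose and 19 did not pass, so that 31.2% were called lower against 10.2% of all genes. With only the 9667 genes brighter than the median of all rows tested, 1808 fell, 11 of this list among them.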
